A study of Homo sapiens with 17 samples.

Results

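Translational efficiency was taken here as the number of ribosome footprints on the coding region of a gene relative to its mRNA, and the quantity described is how far that ratio differed between cells given Cas9 and cells given dCas9 at 72 h. The 8 libraries labelled 72 h were used, of 17 in the series. For every gene the log2 fold change of Cas9 against dCas9 in mRNA was subtracted from that in footprints, and the difference was tested as the interaction of nuclease and library type. Each change therefore had 2 sides, and every class of genes was asked which side moved it. Of 17023 genes with any count, 10896 had a mean count of at least 20 in both library types and were tested.

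The cells were HEK293, an established human embryonic kidney line, and all groups were electroporated with a ribonucleoprotein carrying the sgIntron guide, which targets the non-coding intron 12 of JAK2. The labels give 300 pmol of nuclease with 300 pmol of guide, and the guides of this time point were transcribed in vitro. Cas9 cuts the target, whereas dCas9 has no nuclease activity, so the dCas9 cells received protein, guide and electroporation without the break. Each nuclease had 2 mRNA libraries (replicates a and b) and 2 footprint libraries (replicates e and f). The titles of the Cas9 footprint libraries read rcas9, and they were assigned to Cas9 by the treatment field of the labels, on which every footprint comparison rests. A replicate was a plate into which 4 electroporations had been pooled. The p-values rest on the spread between such plates, library preparation included, estimated for each gene over mRNA and footprint libraries together. The paper states that each lysate was split for both library types, and the test treats the libraries as independent. The neurofilament genes NEFL, NEFM and INA, which HEK293 cells express, had counts in all 8 libraries (37 to 2113). Of the listed markers of other lineages, PTPRC, ALB, CD74, MYH6 and KRT5 had at most 8 counts, and HBB was not among the genes with a count. COL1A1, also listed as a marker of other lineages, had 83 to 222 counts in all 8 libraries, which overlaps the range of NEFM (37 to 231).

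In ribosome profiling, RNase digests the mRNA that ribosomes do not cover, and the protected fragments are sequenced, so that footprints on a gene report both its mRNA level and how densely that mRNA is occupied. Dividing by mRNA removes the first part, and the ratio can rise because ribosomes were gained or because mRNA was lost while footprints stayed. Ribosomal protein mRNAs are the best known class under such control, through the pyrimidine-rich start of their transcripts, and mRNAs of the integrated stress response (ISR) are another, through upstream reading frames. Counts were scaled to CPM, a library's counts divided by its adjusted total and multiplied by a constant. These are relative, so that fewer transcripts per cell and a smaller share of a library cannot be told apart.

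The mRNA libraries held 33040296 to 42825667 counts and the footprint libraries 3183555 (Cas9 e) to 8864461 (dCas9 f). The mRNA library dCas9 a stood apart by the GC content of coding regions. Its log2 difference from dCas9 b had a Spearman correlation with GC content across genes of 0.83, and the differences of Cas9 a and Cas9 b from it had correlations of -0.61 and -0.73. The differences of the same Cas9 libraries from dCas9 b had correlations of 0.03 and 0.13. Genes are not independent replicates, and these values describe the libraries only. The typical difference (median absolute log2 difference) between the dCas9 mRNA replicates was 0.183, against 0.105 between the Cas9 replicates and 0.134 to 0.226 between nucleases. For several results that rest on dCas9 a, the value without it is therefore also given.

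Translational efficiency increased for 76 genes and decreased for 2 at a false discovery rate of 0.1 (quasi-likelihood test of edgeR, p-values adjusted after Benjamini and Hochberg). These 78 genes were 0.716% of those tested (0.698% increased and 0.0184% decreased), and 1219 genes had an unadjusted p under 0.05. All 78 changed in the same direction in each of the 16 combinations of a Cas9 and dCas9 pair of mRNA libraries with such a pair of footprint libraries, as did 2930 of all tested genes. The increases ranged from 0.54 to 1.87 on the log2 scale, with a median of 0.84. Of the called genes, 3 pairs (EIF3C with EIF3CL, U2AF1 with ENSG00000275895, HNRNPUL2 with HNRNPUL2-BSCL2) had counts within 1.1-fold of each other in all libraries. These pairs cannot be told apart, and counting each once leaves 75. Sharing of only part of the reads between called genes was not examined. The number of calls rested on single libraries. Without any 1 of the footprint libraries it was 1 to 3, without the mRNA library Cas9 a it was 29, and without Cas9 b or dCas9 a it was 246 and 223. Without dCas9 b it was 1065, of which 473 were decreases. All 78 genes kept their direction in each alternative fit that tested them, 22 for 75 genes and 21 for MT-CO2, MT-ATP6 and SLC25A15.

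The increases came from the mRNA side. All 76 increased genes had lower mRNA in Cas9 cells, with a median mRNA log2 fold change of -0.80, while the median change of their footprints was 0.04. Of the 78 called genes, 77 were also called in mRNA (613 genes or 5.63% of those tested), and 0 were called in footprints. The mRNA change was the larger of both sides in 76 of 78 (97.4%). The mRNA libraries of the nucleases did not overlap for any of the 78, and the footprint libraries did not overlap for 29. Of all 10896 tested genes, the mRNA libraries did not overlap for 5398 and the footprint libraries for 3463, so the footprint count of the called genes was near the background.

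Among all tested genes, mRNA decreased for 567 (5.2%) and increased for 46 (0.422%), whereas edgeR called 0 genes in footprints. At an unadjusted p under 0.05, edgeR gave 396 genes for footprints, and DESeq2 and limma's voom, run on the same genes, also gave 0 at the false discovery rate. The mRNA decrease was not met by footprints: the median footprint change of the 567 genes was 0.00 against -0.56 in mRNA. Of these genes, 566 had a translational efficiency change above 0. The 46 genes with increased mRNA had a median footprint change of 0.02 against 0.34 in mRNA, and all had a translational efficiency change below 0. Both counts follow largely from the choice of genes, as the mRNA change is part of the translational efficiency change. A typical gene moved by 0.11 in footprints, 0.16 in mRNA and 0.21 in translational efficiency (median absolute log2 fold change).

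**Figure D1:**
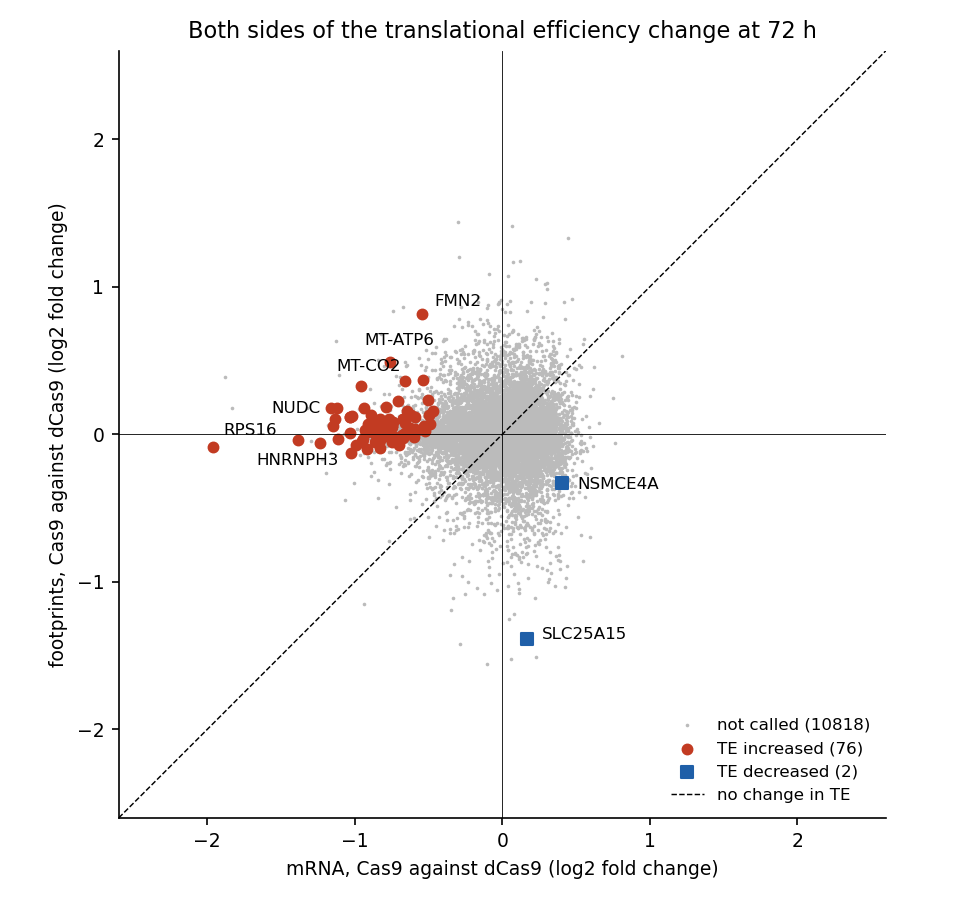
Log2 fold change of Cas9 against dCas9 in mRNA (x axis) and in footprints (y axis) for each tested gene at 72 h. Genes called for translational efficiency are coloured, and the dashed line marks equal change on both sides. The 76 increased genes (circles) spread to the left at footprint changes near 0, with FMN2 highest at 0.81, and SLC25A15 (square) sits at -1.39 in footprints and 0.17 in mRNA.

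RPS16, a protein of the small ribosomal subunit, had the largest increase. The gene lies at chr19:39433137-39435949 on the minus strand of GRCh38. Its mRNA was 79.5 and 77.9 CPM in the Cas9 libraries a and b and 240 and 373 CPM in the dCas9 libraries. Its footprints were 797 and 843 CPM in Cas9 cells and 859 and 887 CPM in dCas9 cells. Every Cas9 mRNA library was thus well below both dCas9 libraries, while the footprint libraries lay within a narrow band. Translational efficiency rose by 1.87 ± 0.20 (log2 fold change ± SE, edgeR adjusted p = 0.000875), made of a change of -1.96 ± 0.15 in mRNA and of -0.09 ± 0.14 in footprints. The footprint CPM over the mRNA CPM was 10.4 in Cas9 and 2.85 in dCas9 cells. RPS16 was the only called gene that passed the threshold in all 22 alternative fits, with values between 1.57 and 2.14.

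NUDC, which acts with dynein in nuclear migration and cell division (chr1:26900238-26946871, plus strand), had the next smallest p among nuclear genes. Its mRNA was 62.0 and 81.9 CPM in Cas9 and 149 and 169 CPM in dCas9 cells, and its footprints were 343 and 362 against 339 and 339 CPM. The mRNA groups did not overlap, as in 5398 of all 10896 tested genes, and the footprint groups differed by little (0.06 ± 0.12). Translational efficiency rose by 1.20 ± 0.17 (edgeR adjusted p = 0.0112).

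HNRNPA0, an RNA-binding protein, and ARHGDIA, an inhibitor of GDP release from small GTPases, behaved alike. HNRNPA0 mRNA was 54.2 and 62.9 CPM in Cas9 and 102 and 108 CPM in dCas9 cells, with footprints of 550 and 550 against 549 and 489 CPM. ARHGDIA mRNA was 80.2 and 83.3 against 149 and 142 CPM, with footprints of 459 and 448 against 460 and 464 CPM. In both genes all Cas9 mRNA libraries lay below all dCas9 libraries, and the increases were 0.93 ± 0.14 (edgeR adjusted p = 0.0201) and 0.81 ± 0.13 (0.0212).

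EIF3C, a core subunit of the initiation factor that recruits the small ribosomal subunit, had mRNA of 317 and 431 CPM in Cas9 and 685 and 732 CPM in dCas9 cells. Its footprints stayed between 1222 and 1260 CPM in all 4 footprint libraries. Translational efficiency rose by 0.94 ± 0.16 (edgeR adjusted p = 0.0270), and EIF3CL, a near-identical copy, gave the same value. U2AF1, which recognises the 3′ splice site, had mRNA of 30.5 and 39.8 against 62.4 and 81.0 CPM and footprints of 256 and 271 against 240 and 247 CPM. It rose by 1.15 ± 0.20 (adjusted p = 0.0270), and ENSG00000275895, listed with identical counts, did so with it.

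APEX1, the main apurinic site endonuclease of base excision repair, had mRNA of 60.7 and 59.7 CPM in Cas9 and 99.4 and 113 CPM in dCas9 cells, with footprints of 197 to 210 CPM throughout. TACC3, a spindle protein, had mRNA of 86.3 and 108 against 161 and 183 CPM and footprints of 271 to 311 CPM. Both rose through mRNA, by 0.87 ± 0.15 (edgeR adjusted p = 0.0270) and 0.93 ± 0.16 (0.0373). In both the mRNA groups did not overlap, as in 5398 of all 10896 tested genes.

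**Figure D2:**
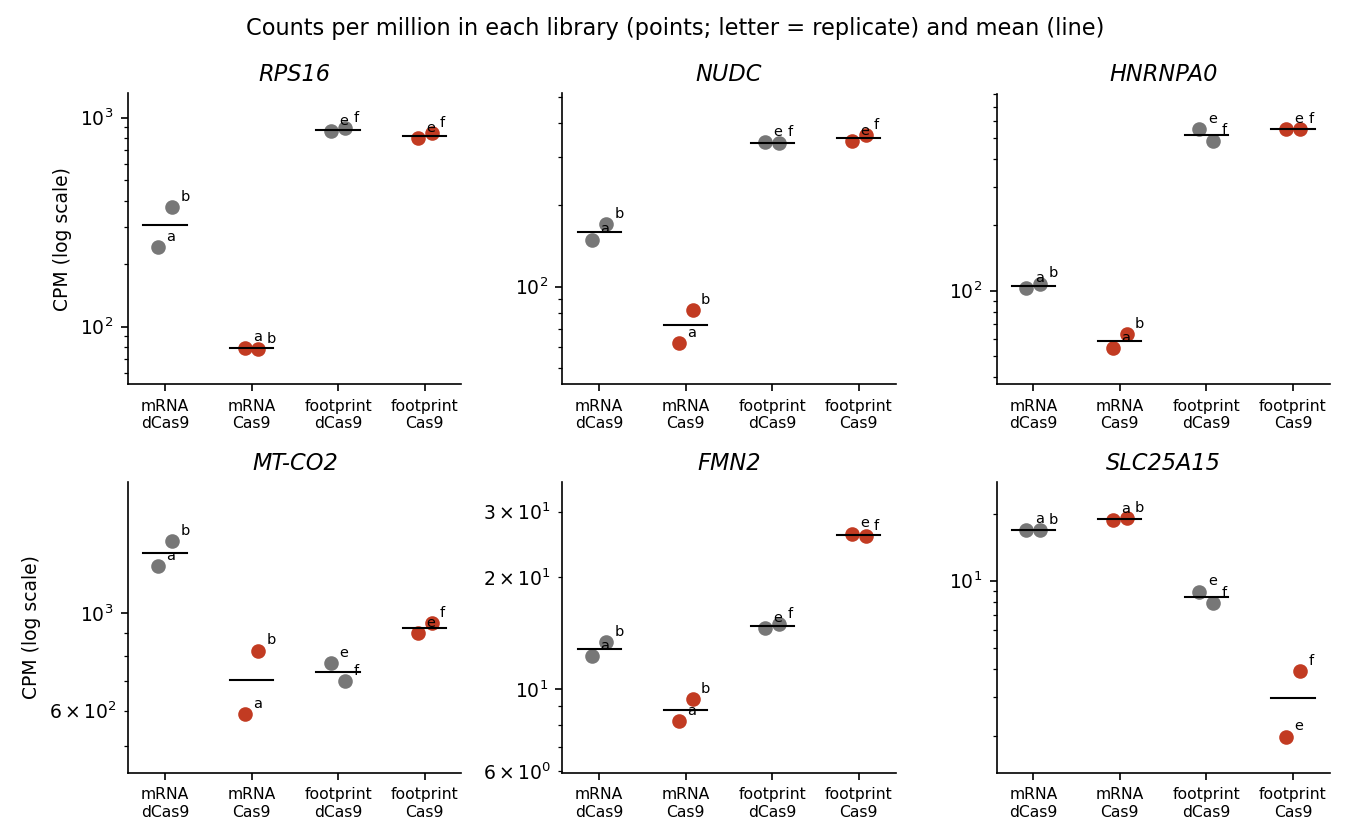
CPM of 6 genes in each of the 8 libraries at 72 h on a log axis (points, with the replicate letter beside them) and the mean of each group (line), dCas9 in grey and Cas9 in red. RPS16, NUDC and HNRNPA0 differ between nucleases mainly in mRNA, MT-CO2 and FMN2 in both library types and in opposite directions, and SLC25A15 in footprints.

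Only 2 called genes were moved more by footprints than by mRNA. FMN2, a formin that nucleates actin filaments (chr1:240014348-240475187, plus strand), had footprints of 26.2 and 25.8 CPM in Cas9 and 14.6 and 14.9 CPM in dCas9 cells. Its mRNA was 8.20 and 9.38 against 12.3 and 13.4 CPM. Both sides were without overlap and pointed in opposite directions, 0.81 ± 0.19 in footprints and -0.55 ± 0.16 in mRNA, and translational efficiency rose by 1.36 ± 0.25 (edgeR adjusted p = 0.0396).

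SLC25A15, the mitochondrial ornithine carrier (chr13:40789412-40812460, plus strand), had the largest decrease. Its footprints were 1.99 and 3.92 CPM in Cas9 and 8.93 and 7.89 CPM in dCas9 cells, so the groups did not overlap, and its dCas9 mean of 8.41 CPM was the lowest footprint level among the called genes. Its mRNA was 18.8 and 19.1 against 16.96 and 16.8 CPM. Translational efficiency fell by 1.55 on the log2 scale (SE 0.35, edgeR adjusted p = 0.0778), of which footprints gave -1.39 ± 0.30. NSMCE4A, a subunit of the SMC5/6 complex of DNA repair, was the other decreased gene, and here both sides contributed. Its mRNA was 114 and 109 against 77.1 and 91.0 CPM, its footprints were 58.7 and 64.3 against 76.3 and 78.6 CPM, and translational efficiency changed by -0.73 ± 0.17 (adjusted p = 0.0950).

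The next genes by p whose footprints moved more than their mRNA did not pass the threshold. UTP6, of the small subunit processome, had a change of -0.61 ± 0.15 (edgeR adjusted p = 0.106), with footprints of 92.5 and 92.8 CPM in Cas9 and 122 and 116 CPM in dCas9 cells. HAX1, a regulator of cell survival at mitochondria, had -0.66 ± 0.17 (0.113), and its footprints were 42.7 and 46.7 against 61.1 and 56.9 CPM. In both the Cas9 footprint libraries lay below the dCas9 libraries, and footprint groups did not overlap in 3463 of all 10896 tested genes. PBX2, a homeobox factor, and RGS3, a regulator of G protein signalling, had 0.88 ± 0.22 (0.118) and 1.499 ± 0.40 (0.142), the latter at footprints of 3.13 to 9.61 CPM. Among all tested genes the footprint change was the larger side in 41.6%.

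The mitochondrial genome codes for 13 proteins of the respiratory chain, whose mRNAs are translated by the ribosomes of the organelle. Only 5 of these genes had a counted coding length at 72 h, and all 5 were tested. The others (MT-ND1, MT-ND2, MT-ND3, MT-ND4, MT-ND6, MT-CYB, MT-CO1 and MT-CO3) had no counted coding length and were not tested. All 5 had a footprint change above 0 and an mRNA change below 0. The median translational efficiency change of the complex I genes and that of the others were above 0 in all 16 combinations, whereas MT-ATP8 by itself was above 0 in 12.

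MT-CO2, a subunit of cytochrome c oxidase at positions 7586 to 8269 of the mitochondrial chromosome, had mRNA of 590 and 821 CPM in Cas9 and 1279 and 1457 CPM in dCas9 cells. Its footprints were 899 and 948 against 768 and 701 CPM. Neither library type overlapped between nucleases, and translational efficiency rose by 1.29 ± 0.17 (edgeR adjusted p = 0.00874), 74.3% of it on the mRNA side. MT-ATP6, a subunit of the ATP synthase, had mRNA of 149 and 199 against 237 and 354 CPM and footprints of 388 and 381 against 294 and 253 CPM, and rose by 1.25 ± 0.23 (0.0396).

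The remaining 3 did not pass the threshold. MT-ND4L of complex I had a change of 1.02 ± 0.25 (edgeR adjusted p = 0.106), MT-ATP8 of 0.66 ± 0.33 (0.480) and MT-ND5 of 0.57 ± 0.20 (0.278). Their footprint changes were 0.47, 0.43 and 0.41, close to those of the called pair. In all 5 genes each Cas9 footprint library was above each dCas9 footprint library. Footprint libraries of the nucleases did not overlap for 3463 of all 10896 tested genes. MT-ATP8 (positions 8366 to 8572) and MT-ATP6 (8527 to 9207) overlap on the mitochondrial chromosome. As a share of all counts, the mitochondrial genes made up 0.0995% and 0.137% of mRNA in Cas9 and 0.186% and 0.225% in dCas9 cells. In footprints they made up 0.217% and 0.217% against 0.174% and 0.157%.

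Ribosomal protein genes split into a large group with higher mRNA and a small group with lower mRNA in Cas9 cells. Of the 33 small subunit genes, mRNA increased for 8 and decreased for 3, and of the 47 large subunit genes it increased for 7 and decreased for 4. The other 58 were not called in mRNA. Among all tested genes, mRNA increased for 0.422% and decreased for 5.2%. Footprint changes of all 80 genes lay between -0.09 and 0.19. The median translational efficiency change was -0.19 for the small and -0.13 for the large subunit, beside 0.00 for all tested genes, and the median mRNA change was 0.21 and 0.17. The mRNA side was the larger in 31 of 33 and 44 of 47. Of the 80 genes, 3 increased in translational efficiency (RPS16, RPLP1 and RPL28), 0 decreased, and 23 had an unadjusted p under 0.05. Among all 10896 tested genes, 0.698% increased and 1219 had such a p.

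The sequence around the transcription start of these genes was searched for a pyrimidine run, and control of translation through it was not tested here. The 3 genes called for translational efficiency and the 3 with the smallest p for higher mRNA are shown, 10 bases before and 15 from the RefSeq start of GRCh38.p14, 5′ to 3′, with the longest run of C and T that begins with C in capitals.
RPS16: ccctagCTTTCCTTTTCCggttgcg
RPLP1: ggcgcgagagCCCCTTTCCTCagct
RPL28: cctcgCCTTCCTCTTTCCgtctcag
RPL9: taatgacgacagacgttCTTTCTTT
RPS7: cgCCCTCCTCCTCgcgctgtttccg
RPL21: ccgCCTCTTTCCTTTCggccggaac

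A run of at least 5 such bases on the strand of the gene was present in 57 of the 64 ribosomal protein genes that had an entry (89.1%). It was present in 33.6% of the tested genes and 33.5% of all promoters with an entry. It was found in 5 of 5 genes with decreased and 11 of 12 genes with increased mRNA that had an entry. These shares were not tested against each other. A run anywhere in the window was counted, so a counted run need not begin the transcript. In RPL9 it lies downstream of the start and reaches the end of the window, and in RPS7 most of it lies before the start. The windows shown are chr19:39435935-39435959 (minus strand, RPS16), chr15:69452808-69452832 (RPLP1), chr19:55385922-55385946 (RPL28), chr4:39458908-39458932 (minus strand, RPL9), chr2:3575250-3575274 (RPS7) and chr13:27251548-27251572 (RPL21).

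RPLP1, an acidic protein of the ribosomal stalk, had mRNA of 343 and 351 CPM in Cas9 and 550 and 615 CPM in dCas9 cells, with footprints of 1272 and 1117 against 1235 and 1246 CPM. RPL28 of the large subunit had mRNA of 170 and 272 against 511 and 443 CPM, with footprints of 624 and 692 against 656 and 690 CPM. In both, footprint libraries of the nucleases overlapped and mRNA libraries did not, the latter as in 5398 of all 10896 tested genes. Translational efficiency rose by 0.69 ± 0.13 (edgeR adjusted p = 0.0396) and 1.08 ± 0.22 (0.0410). RPL8, RPS21, RPS2 and RPL3 also had decreased mRNA, with translational efficiency changes of 0.36 to 0.39 that did not pass the threshold (adjusted p 0.198 to 0.342).

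On the other side, RPL9 had mRNA of 1909.6 and 1815 CPM in Cas9 against 1399 and 1435 CPM in dCas9 cells, and RPL21 had 1249 and 1252 against 926 and 1009 CPM. Both Cas9 libraries were above both dCas9 libraries in each gene, and mRNA groups did not overlap in 5398 of all 10896 tested genes. Their translational efficiency changes, -0.32 ± 0.11 and -0.39 ± 0.12, did not pass the threshold (edgeR adjusted p = 0.283 and 0.228). The genes with decreased mRNA had coding GC contents of 53.8% to 61.8% and those with increased mRNA 42.5% to 52.9%, so that both groups did not overlap in GC content. Without dCas9 a, the medians of translational efficiency were -0.27 and -0.21 for the small and large subunit, and with the GC trend of each library removed they were -0.19 and -0.13. Without dCas9 b they were -0.05 and -0.02, the values closest to 0 among the 22 alternatives.

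Of the ribosomal protein genes that the study names, 4 are given here, and none of these was called. RPS27A, made as a fusion with ubiquitin, had a change of -0.19 ± 0.12 (edgeR adjusted p = 0.592). RPS10 had -0.29 ± 0.14 (0.466), RPL10A -0.26 ± 0.13 (0.458) and RPL22 -0.04 ± 0.14 (0.939). RPS27A mRNA was 1311 and 1336 against 1112 and 1164 CPM, with footprints of 575 and 519 against 568 and 505 CPM. Its mRNA groups did not overlap, as in 5398 of all 10896 tested genes, and its footprint groups did.

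Elongation factors and other mRNAs with a pyrimidine start had a median change of -0.12 (0.12 in mRNA and 0.01 in footprints). Of these 19 genes 0 were called, beside 0.716% of all tested genes. HNRNPA1, which is also an hnRNP gene, had the smallest p, with 0.52 ± 0.13 (edgeR adjusted p = 0.106). PABPC1, the cytoplasmic poly(A)-binding protein, was at 0.51 ± 0.15 (0.191), and its mRNA decreased (-0.58 ± 0.10, 0.00543). The eIF3 subunits had a median of -0.12, with EIF3C as the called member among 13. The subunits of eIF2 and eIF2B, which deliver and recycle the initiator tRNA, had -0.13 with 0 of 10 called. This median was -0.09 without dCas9 a and -0.04 with the GC trend removed. Their mRNA median of 0.09 was 0.03 and -0.02 in these fits. Among the members, EIF2S1 was at -0.27 ± 0.17 (0.572) and EIF2S2 at -0.29 ± 0.17 (0.560). The cap-binding factors and their inhibitors had 0.07 with 0 of 13 called. EIF4E was at -0.26 ± 0.16 (0.580) and its inhibitor EIF4EBP1 at -0.40 ± 0.21 (0.507), the latter with footprints of 29.8 and 36.5 CPM in Cas9 and 40.6 and 40.5 CPM in dCas9 cells.

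hnRNP genes, which bind pre-mRNA and shape its splicing and export, gave the most calls of the listed classes of gene function. Of 25 tested members 5 increased (HNRNPA0, PCBP1, HNRNPM, HNRNPH3 and HNRNPUL2) and 0 decreased, and 11 had an unadjusted p under 0.05. Their median was 0.23, made of -0.20 in mRNA and 0.02 in footprints, and 21 of 25 had a value above 0. The mRNA side was the larger in 23 of 25, and mRNA decreased for 9 and increased for 0. Of all 10896 tested genes, 0.698% increased in translational efficiency, 1219 had an unadjusted p under 0.05 for it, and mRNA decreased for 5.2%. The class median lay between 0.10 and 0.35 over the 16 combinations and between 0.19 and 0.30 over all 22 alternatives.

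HNRNPH3 had the largest increase among them. Its mRNA was 16.8 and 17.9 CPM in Cas9 and 31.9 and 58.3 CPM in dCas9 cells, with footprints of 166 and 156 against 175 and 156 CPM, and it rose by 1.34 ± 0.28 (edgeR adjusted p = 0.0447). PCBP1, which binds poly(C) stretches, had mRNA of 43.9 and 54.9 against 85.4 and 89.9 CPM and footprints of 516 to 532 CPM, and rose by 0.79 ± 0.15 (0.0410). HNRNPM had mRNA of 177 and 250 against 357 and 422 CPM and footprints of 1108 to 1170 CPM, and rose by 0.89 ± 0.18 (0.0410). The mRNA groups overlapped in none of these, and they did not overlap in 5398 of all 10896 tested genes. HNRNPA1 was not called, and its mRNA decreased (-0.48 ± 0.09, 0.00726). The SR proteins, the other large family of splicing regulators, had a median of -0.01 with 0 of 13 called, SRSF4 having the smallest p (0.37 ± 0.15, adjusted p = 0.368).

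Genes with coding regions over 2000 codons had a median change of 0.18, with 213 of 304 above 0. Of the 304 genes, 7 increased, 0 decreased, and mRNA decreased for 52 and increased for 0. Their median was -0.17 in mRNA and 0.01 in footprints. Among all tested genes, 0.698% increased in translational efficiency and mRNA decreased for 5.2%. MKI67, the proliferation marker of the chromosome surface, had mRNA of 430 and 472 CPM in Cas9 and 671 and 768 CPM in dCas9 cells, with footprints of 612 to 636 CPM, and rose by 0.65 ± 0.13 (edgeR adjusted p = 0.0410). ARID1A, a subunit of a chromatin remodelling complex, had mRNA of 75.5 and 89.6 against 134 and 129 CPM and rose by 0.78 ± 0.16 (0.0410). PRPF8, the core protein of the spliceosome, had mRNA of 722 and 853 against 1164 and 1198 CPM and rose by 0.61 ± 0.13 (0.0514). In all 3 the mRNA groups did not overlap, as in 5398 of all 10896 tested genes. With all tested genes cut by coding length into 5 equal groups, the longest (848 codons or more) had a median of 0.12 and the shortest (up to 235 codons) of -0.06, and with the GC trend removed these were 0.15 and -0.05.

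Several housekeeping complexes had values below 0, again through mRNA. All 8 subunits of the CCT chaperonin, which folds actin and tubulin, were below 0 (median -0.23, with 0.22 in mRNA and -0.02 in footprints). The mRNA of 3 of these increased, beside 0.422% of all tested genes. Without dCas9 a the class medians of translational efficiency and mRNA were -0.23 and 0.19, and with the GC trend removed -0.13 and 0.10. CCT5 had mRNA of 1829 and 1718 CPM in Cas9 against 1438 and 1484 CPM in dCas9 cells and footprints of 1418 and 1341 against 1488 and 1422 CPM, with a translational efficiency change of -0.36 ± 0.11 (edgeR adjusted p = 0.226). The tubulins had a median of 0.00 with 0 of 12 called, beside 0.716% of all tested genes. TUBB4B was lowest in p among them (0.25 ± 0.12, 0.458).

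The nuclear-encoded respiratory chain, whose products assemble with those of mitochondrial DNA, had a median of -0.16 (0.16 in mRNA and -0.01 in footprints), in the opposite direction to the mitochondrial genes. Of its 76 tested genes 17 were above 0 and only SDHC, a membrane anchor of complex II, was called, beside 0.716% of all tested genes. SDHC mRNA was 14.6 and 21.7 CPM in Cas9 and 36.8 and 37.4 CPM in dCas9 cells, with footprints of 164 to 176 CPM, and it rose by 1.04 ± 0.21 (edgeR adjusted p = 0.0410). Mitochondrial ribosomal proteins had a median of -0.09, and MRPL12 was the called gene among 77. Its mRNA was 40.1 and 58.7 against 110 and 122 CPM, its footprints were 175 and 210 against 185 and 217 CPM, and it rose by 1.18 ± 0.22 (0.0396).

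Proteasome subunits had a median of -0.12 with 1 of 33 called, beside 0.716% of all tested genes. The called gene was PSMC5, an ATPase of the regulatory particle (0.82 ± 0.19, edgeR adjusted p = 0.0832). Its mRNA was 65.8 and 90.1 CPM in Cas9 and 136 and 159 CPM in dCas9 cells, and its footprints were 242 and 259 against 266 and 272 CPM. In PSMC5, SDHC, MRPL12, RPS16, RPLP1 and RPL28 a called increase thus stood in a class whose median lay below 0.

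Genes of the unfolded protein response had a median of 0.10, and beside 0.716% of all tested genes, 1 of 21 was called. This was HSPA5, the main chaperone of the endoplasmic reticulum, with mRNA of 113 and 133 CPM in Cas9 and 189 and 274 CPM in dCas9 cells, footprints of 767 and 701 against 691 and 707 CPM, and an increase of 0.98 ± 0.19 (edgeR adjusted p = 0.0410). Cytosolic and mitochondrial heat shock chaperones had 0.00 with 0 of 19 called. HSP90AA1 was at 0.58 ± 0.17 (0.182), and its mRNA decreased (-0.60 ± 0.12, 0.00887).

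For ISR targets the footprint change was the larger side in 20 of 31 members (64.5%, beside 41.6% of all tested genes). Of the study's list of these targets 66 genes were used here, and 31 of them were tested. Their median change was 0.11 in translational efficiency, 0.16 in footprints and -0.04 in mRNA, and 23 of 31 were above 0. The class median of the ratio was above 0 in all 16 combinations (0.06 to 0.25) and 0.10 to 0.22 over the 22 alternatives. That of footprints was 0.01 to 0.15 over the 4 pairs of libraries, below the fitted 0.16 in each. No member was called, in translational efficiency, in mRNA or in footprints, with edgeR at the false discovery rate. These 3 comparisons called 0.716%, 5.63% and 0% of all tested genes. For translational efficiency 5 of 31 had an unadjusted p under 0.05, beside 1219 of all 10896 tested genes. GOLGA8B had the smallest p, with footprints of 11.3 and 10.7 CPM in Cas9 and 7.05 and 9.21 CPM in dCas9 cells and a change of 0.78 ± 0.24 (0.231).

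Stress mRNAs with upstream reading frames had a median of -0.02 in translational efficiency, 0.14 in mRNA and 0.18 in footprints, and 0 of 10 were called on any of these. The first kept its sign in 11 of 22 alternatives. The footprint change was the larger in 6 of 10 (60%). ATF4, the transcription factor at the centre of the ISR, had mRNA of 610 and 600 CPM in Cas9 and 567 and 507 CPM in dCas9 cells and footprints of 49.7 and 46.5 against 49.97 and 42.5 CPM. Its change was -0.12 ± 0.16 (edgeR adjusted p = 0.819). PPP1R15A, which directs the phosphatase of eIF2α, was at 0.09 ± 0.25 (0.931), with footprints of 8.93 to 12.3 CPM. DDIT3 did not reach the count minimum. ATF4 targets in metabolism had a median of 0.00 with 0 of 19 called, beside 0.716% of all tested genes. PHGDH had the smallest p among them (0.32 ± 0.13, 0.358).

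**Figure D3:**
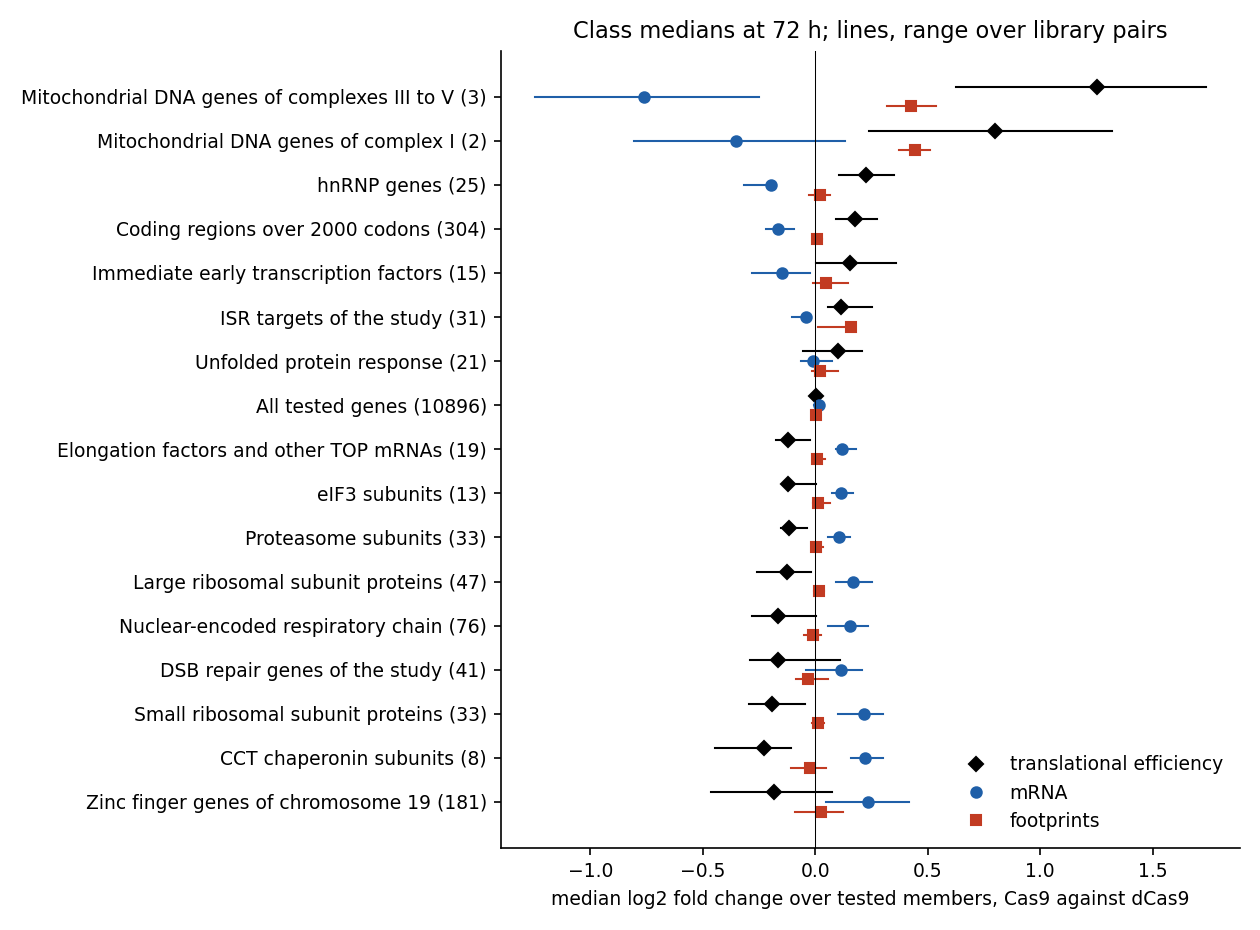
Median log2 fold change of Cas9 against dCas9 at 72 h over the tested members of 16 classes and of all tested genes (number of genes in brackets) for translational efficiency (diamonds), mRNA (circles) and footprints (squares). Lines span the 4 pairs of libraries for mRNA and footprints and the 16 combinations for translational efficiency. Footprint medians stay near 0 in most classes while mRNA medians lie to either side. The footprint medians of the mitochondrial groups and of ISR targets are 0.43, 0.44 and 0.16, the last above its line (0.01 to 0.15).

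JAK2, whose intron the guide targets, did not reach the count minimum: it had 231 to 472 counts in mRNA and 10 to 23 in footprint libraries. The repair genes of double-strand breaks listed by the study had a median of -0.17 (0.11 in mRNA and -0.03 in footprints), which was -0.06 both without dCas9 a and with the GC trend removed. Beside 0.716% of all tested genes, 1 of these 41 was called. RPA1, the large subunit of the factor that coats single-stranded DNA, had mRNA of 74.2 and 105 CPM in Cas9 and 149 and 196 CPM in dCas9 cells, footprints of 320 and 294 against 319 and 307 CPM, and an increase of 0.91 ± 0.21 (edgeR adjusted p = 0.0866). PRKDC, the catalytic subunit of DNA-dependent protein kinase, was at 0.17 ± 0.14 (0.677).

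MDM2, a ubiquitin ligase, had footprints of 57.0 and 49.7 CPM in Cas9 and 46.7 and 40.2 CPM in dCas9 cells and a translational efficiency change of 0.14 ± 0.21 (edgeR adjusted p = 0.845). Its footprint groups did not overlap, as in 3463 of all 10896 tested genes, while mRNA ranged from 98.3 to 134 CPM and overlapped between nucleases.

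The lists of cell cycle genes had medians below 0 and no call, beside calls for 0.716% of all tested genes. Cyclins and their kinases had -0.14 with 8 of 22 above 0, and CCNE2 was lowest in p (-0.78 ± 0.31, edgeR adjusted p = 0.360). Replication licensing genes had -0.15 with 2 of 23 above 0, one of them CDT1 (0.39 ± 0.16, 0.370). In both classes mRNA medians were above 0 (0.12 and 0.10) and footprint medians were -0.02. Histone genes that are expressed with replication had 0.07 with H4C8 called among 50 (0.54 ± 0.13, 0.0871), and immediate early factors had 0.15 with 0 of 15 called, KLF6 being lowest in p (1.34 ± 0.38, 0.178). Without dCas9 a the medians of the histones and immediate early factors were -0.09 and 0.05. Those of ATF4 targets in metabolism, glycolysis enzymes and tubulins also lay below 0 in that fit, at -0.08, -0.07 and -0.12.

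Ribosome biogenesis factors had a median of 0.01, and NCL, nucleolin, was called (0.78 ± 0.17, edgeR adjusted p = 0.0760) with mRNA of 373 and 480 CPM in Cas9 and 665 and 858 CPM in dCas9 cells. Selenoproteins had -0.06, with SEPHS2, which makes the selenium donor, at 1.24 ± 0.24 (0.0410), and iron and polyamine genes had -0.10, with SRM, spermidine synthase, at 0.80 ± 0.16 (0.0435). SEPHS2 mRNA was 33.6 and 49.4 against 83.7 and 98.7 CPM, and SRM mRNA was 62.7 and 75.6 against 125 and 122 CPM. No member was called with edgeR for aminoacyl-tRNA synthetases (-0.01, VARS1 at 0.37 ± 0.14), rescue factors of stalled ribosomes (-0.01, LTN1 at -0.62 ± 0.27), glycolysis enzymes (0.02, HK2 at 0.73 ± 0.19) or interferon-induced genes (-0.03, STAT2 at -0.92 ± 0.28). In these classes 3 of 20, 1 of 19, 3 of 17 and 4 of 23 had an unadjusted p under 0.05. Such a p was found for 1219 of all 10896 tested genes, and 0.716% were called.

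GC content of the coding region moved with the mRNA side. In 5 equal groups of genes, from the lowest GC content to the highest, median translational efficiency changes were -0.19, -0.05, 0.05, 0.12 and 0.09, and mRNA changes were 0.19, 0.07, -0.03, -0.08 and -0.06, while footprints stayed between -0.02 and 0.02. Without the mRNA library dCas9 a, the medians of translational efficiency lay between -0.05 and 0.03 over the groups, and with the trend of each library removed between 0.02 and 0.04. The zinc finger genes of chromosome 19, a cluster of transcription repressors with a median coding GC content of 42.7%, moved with it. Their median of -0.18 was -0.11 without dCas9 a and -0.02 with the trend removed. Of the 181 genes 0 were called, beside 0.716% of all tested genes, ZNF180 being lowest in p (-1.39 ± 0.44, edgeR adjusted p = 0.235).

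All 78 called genes were called again without dCas9 a and with the GC trend removed. These settings called 223 and 642 genes in all. The called genes had a median coding GC content of 55.7%, beside 51.7% for all tested genes, a median length of 440.5 against 460 codons, and more reads, with a median of 106 against 33.2 CPM for mRNA and of 243 against 29.1 CPM for footprints in dCas9 cells.

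**Figure D4:**
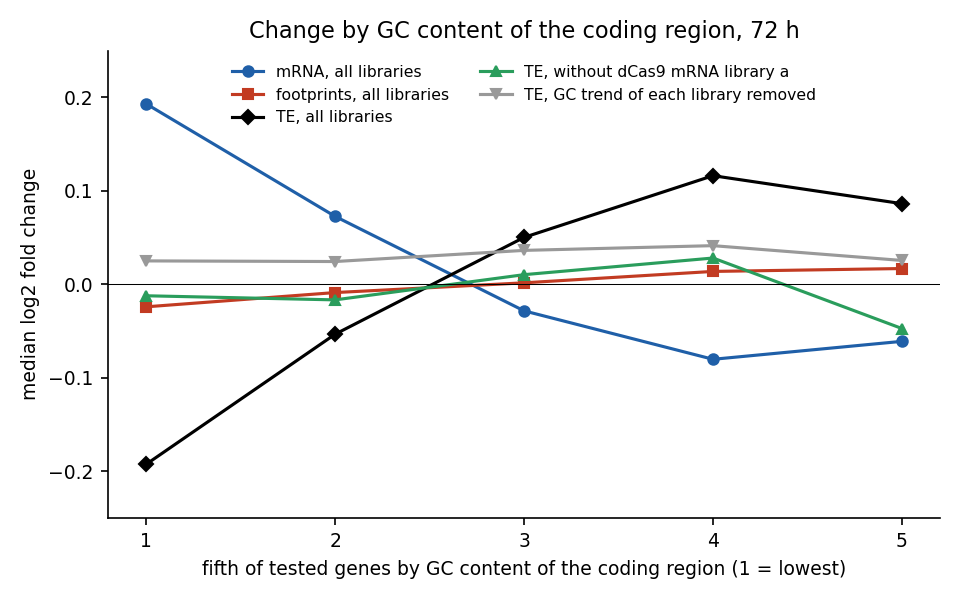
Median log2 fold change of Cas9 against dCas9 at 72 h (y axis) over 5 equal groups of the tested genes by GC content of the coding region (x axis, lowest to highest), for mRNA, footprints and translational efficiency with all 8 libraries, and for translational efficiency without the mRNA library dCas9 a or with the GC trend of each library removed. The range from -0.19 to 0.12 with all libraries narrows to between -0.05 and 0.04 in both other settings.

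Compared with 36 h, the change at 72 h differed for 1 of 8970 genes tested at both times (0.0111%), in edgeR's test of the difference of both interactions over all 17 libraries, and 692 had an unadjusted p under 0.05. DESeq2 gave 35 and voom 0. Synthetic guides were used at 36 h, and the study's methods name another aligner and annotation for each time, so that these steps and time cannot be told apart. The submitters' notes name a single aligner. The gene was RPS16, with 1.86 at 72 h and 0.13 ± 0.19 at 36 h, a difference of 1.73 ± 0.28 (edgeR adjusted p = 0.0279). Its mRNA side differed by -1.82 and its footprint side by -0.09. In the joint fit, RPS16 mRNA was 1058 to 1262 CPM in the 5 mRNA libraries of 36 h and 82.6 to 394 CPM at 72 h, whereas footprints were 767 to 938 CPM in the 8 footprint libraries of both times.

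All 78 genes called at 72 h were tested at 36 h, and 0 were called there (edgeR, with 2 genes called in all at 36 h and 992 at an unadjusted p under 0.05). Their median translational efficiency change was 0.82 at 72 h and 0.03 at 36 h in the joint fit, and 48 of 78 had the same sign. NSMCE4A had -0.74 at 72 h and -0.84 ± 0.24 at 36 h. SLC25A15 had -1.57 and 0.52, MT-CO2 1.28 and 0.05, and NUDC 1.19 and 0.28. The 76 increased genes had a median mRNA level lower by 1.07 (log2) at 72 h than at 36 h in Cas9 cells and by 0.29 in dCas9 cells, whereas the median of all genes was higher at 72 h by 0.01 in both. Their footprint levels differed by -0.05 and -0.03. These genes were chosen by the 72 h difference, and the values are a description.

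In the same joint fit, small subunit ribosomal proteins had -0.20 at 72 h and 0.10 at 36 h, large subunit proteins -0.13 and 0.05, the nuclear-encoded respiratory chain -0.18 and 0.08, hnRNP genes 0.22 and 0.05, and long coding regions 0.17 and -0.09. ISR targets, of which 15 were tested at both times, had 0.19 and -0.05. The differences of class medians were not tested.

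**Figure D5:**
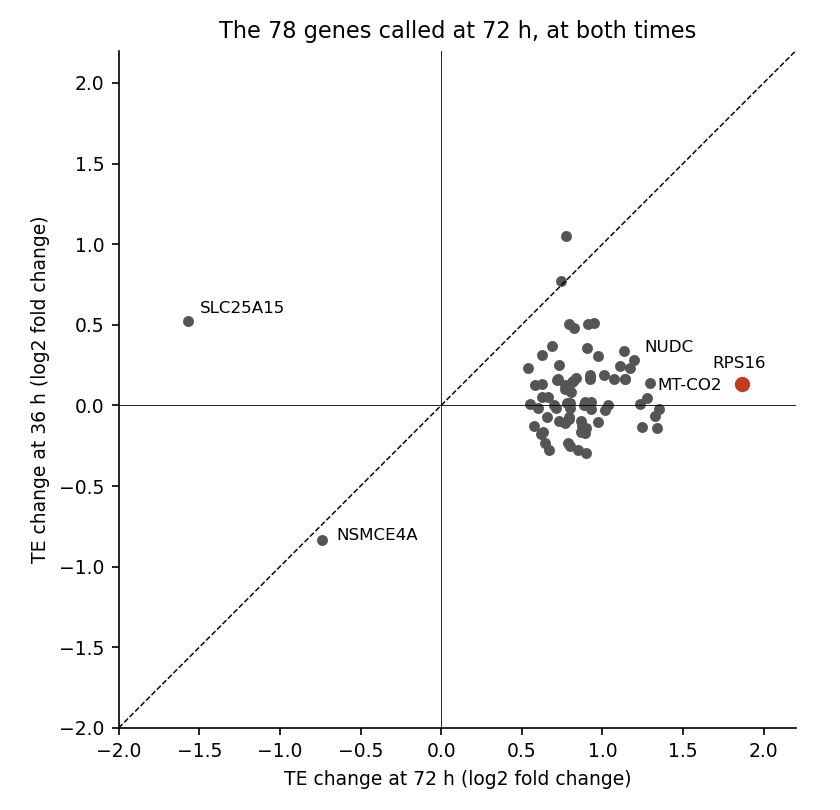
Translational efficiency change of Cas9 against dCas9 (log2 fold change) at 72 h (x axis) and at 36 h (y axis) for the 78 genes called at 72 h, from the joint fit, with the dashed line at equal change. Most points lie near 0 on the y axis, RPS16 (red) is the gene whose change differed between the times, and NSMCE4A lies near the dashed line.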

How the data were processed

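mRNA and ribosome footprints were measured at 72 h in HEK293 cells after Cas9 or dCas9. The authors aligned the 72 h reads to GENCODE transcripts on GRCh38 and counted them on each transcript with fp-count. The submitters' processing notes name HISAT2 2.1.0, the study's methods tophat for 72 h. The values they deposited are raw counts per transcript, with a coding length in codons. Transcripts were matched by identifier to GENCODE release 44 (51822 of 54701 with a coding length, 95.782% of counts), which gave gene names, coordinates and coding GC content. The transcript with the highest summed count was kept per gene. How reads that fit several transcripts were counted is not given in the sources used here, so near-identical genes are uncertain.

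Genes averaging 20 or more counts in each library type were fitted in edgeR 4.0.16 (R 4.3.3) with TMM factors, a mean for each nuclease and library type, and the quasi-likelihood test at a false discovery rate of 0.1. CPM divide by the total over tested genes times the TMM factor. The study used DESeq2 (here 1.42.0, an alternative). Counts were simulated for the 72 h translational efficiency test on 10896 genes, with changes placed in Cas9 footprints and the same dispersion for all libraries. Of 50 genes changed by 1 on the log2 scale 40 were recovered, and of 50 changed by 0.5 only 3, and 16 of 156 calls were false. The simulation held no GC trend and no change in mRNA, so it does not give the error rate of the calls in these data.

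Genes were named by rule: up to 5 decreased calls, the 12 increased calls with the smallest p, genes the study names, per class up to 3 called members or the smallest p, mitochondrial genes, and 6 genes moved more by footprints. RPL9, RPS7, RPL21, RPL8, RPS21, RPS2, RPL3, HNRNPH3, HNRNPUL2 and HNRNPUL2-BSCL2 were added after their values were seen. Some genes that this rule names are not reported here. The members, classes and lists were chosen with earlier results of these data known. Alternatives were DESeq2, voom, other scalings and filters, GC correction, the replicate block, another transcript and each library left out.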

Additional observations from a re-analysis of the deposited data

Results flagged for a closer look

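The translational efficiency change of RPS16 differed between 72 h and 36 h by 1.73 (log2, SE 0.28, edgeR adjusted p = 0.0279) in a test of the difference itself over all 17 libraries. It was 1.86 at 72 h and 0.13 at 36 h. The difference kept its direction in each of the 12 alternatives run for it, with values of 1.37 to 2.01. It lost the threshold in 6 of them, which were voom and the fits without the 72 h mRNA library Cas9 a or without any 1 of the 72 h footprint libraries (adjusted p 0.110 to 0.317). The guides and, by the study's methods, the annotation and aligner also differ between the times (the submitters' notes name a single aligner), and their part was not tested.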

How the results depend on the processing

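The 78 calls for translational efficiency became 221 with DESeq2, 170 with its size factors in edgeR, 126 without TMM, 260 with every gene, 118 at a mean count of at least 100, 136 with voom and 43 at a rate of 0.05. They became 642 with the GC trend removed, of which 75 decreased, and 469 with, in addition, dCas9 mRNA a left out (chosen after seeing the data). The 613 mRNA calls became 1884 with the GC trend removed, 293 with mRNA fitted alone and 390 at a rate of 0.05. The 0 footprint calls became 1 with DESeq2 size factors, 1 without TMM, 2 with every gene, 1 with the GC trend removed and 4 with footprints fitted alone. The share of calls moved more by mRNA (97.4%) was 84.2% with every gene and 85.0% with the GC trend removed. Leaving out 1 library gave 1 to 1065 calls for translational efficiency, 110 to 2472 for mRNA (110 without Cas9 a and 2472 without dCas9 b), 0 to 1 for footprints, 66.7% to 100% for the side, 14 to 27 class medians below 0 (22 of 37 with all libraries) and 0 to 9 for the difference between times, which was 1 with all libraries, 35 with DESeq2 and 0 with voom. The cause of these shifts was not tested.

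Replicate letters were shared by both nucleases, and deviations of same-lettered libraries had correlations across genes of -0.140 in mRNA and 0.011 in footprints. With 2 libraries per group, and with the GC shift of dCas9 a in mRNA, these values cannot decide whether the letters mark pairs. With the replicate block the calls were 88 for translational efficiency, 535 for mRNA and 0 for footprints, and the side was 97.7%. Of the 78 calls 66 remained, and both decreases were lost (adjusted p 0.152 for SLC25A15 and 0.153 for NSMCE4A). With the replicate block and the GC trend removed they were 731, 1904 and 3, and the side was 85.1%. With crossed mRNA pairs as the block (chosen after seeing the data) they were 249, 1133 and 1, and the side was 90.8%.

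Of the named genes that were not called, 4 changed sign, which gave 13 reversed values in all. Without dCas9 mRNA b, MDM2 was -0.046 and ATF4 0.016. RPL22 and PPP1R15A were 0.086 and -0.0080 with the GC trend removed, 0.086 and -0.013 with the replicate block as well, 0.015 and -0.026 with the GC trend removed and dCas9 mRNA a left out, and 0.0079 and -0.013 without dCas9 mRNA a alone. RPL22 was 0.076 without Cas9 footprint f, and without dCas9 footprint e ATF4 was 0.0011 and PPP1R15A -0.058. Over the fits that leave out 1 library, these values ranged from -0.16 to 0.076 (RPL22), -0.046 to 0.33 (MDM2), -0.23 to 0.016 (ATF4) and -0.058 to 0.27 (PPP1R15A). Over the genes and alternatives, the 31 called named genes kept their direction in all values, of which 542 stayed past the threshold and 135 did not. The depth of the footprint libraries (from 3183555 counts) limits genes of low footprint level such as SLC25A15, FMN2 and RGS3.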
